A study of Mus musculus with 13 samples.

Results

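Mitf encodes the transcription factor MITF, and its locus was followed through 9 lists of H3K27ac peaks from mouse melanoma cell lines. Every peak that touched the gene body or the 100 kb on either side was taken, which gave 191 of the 256200 peaks in the lists. Peaks of different lines that overlapped were joined into regions, and 38 of the 59668 regions of the genome lay at Mitf. In mm10 the gene (ENSMUSG00000035158.15) runs along the plus strand at chr6:97807052-98021349, and the window spans chr6:97707052-98121349. Acetylated lysine 27 of histone H3 (H3K27ac) marks promoters and enhancers in use, and it was mapped by sequencing the chromatin that an antibody to it precipitated.

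The lines were grown from melanomas of mice that all carry an activated NRAS transgene under the tyrosinase promoter, a single functional copy of Cdkn2a and floxed Cdh1, the E-cadherin gene. In the ΔEcad lines Cdh1 was deleted by a Cre that the tyrosinase promoter drives in the melanocyte lineage, and the Ecad lines had no Cre. There were 2 male Ecad lines (Ma_1007 and Ma_1181), 2 female Ecad lines (Ma_1014 and Ma_1039), 2 male ΔEcad lines (Ma_1062 and Ma_1456) and 3 female ΔEcad lines (Ma_1057, Ma_1064 and Ma_1069). Each line gave 1 list, so p-values measure the spread between lines, and the study's question was how loss of E-cadherin acts in each sex.

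MITF is a basic helix-loop-helix leucine zipper factor that melanocytes need for survival and for making pigment, and its level is tied to states of growth and invasion in melanoma. The gene is read from several alternative promoters, each with its own first exon, that splice to the same downstream exons. The M promoter is the one used by melanocytes, where CREB, SOX10, PAX3 and the β-catenin partners TCF/LEF are known to act on it, and the A promoter is used in many tissues.

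The annotation (GENCODE M21) lists 8 Mitf transcripts that begin in 4 places. The A start lies 184740 bp before the M start, and between them 2 further starts belong to the transcripts Mitf-203 and Mitf-204. RefSeq adds 3 predicted places, more than 1 kb from any of these. The promoters of 3 of the 4 starts were in the RefSeq table (GRCm38.p6, the same build), each with 250 bases before the RefSeq start and 50 after it. They are shown because a peak was called at them in 8, 0 and 9 lists, in the order printed, with capitals marking a match to a searched motif on either strand.
A promoter, chr6:97806808-97807107, plus strand: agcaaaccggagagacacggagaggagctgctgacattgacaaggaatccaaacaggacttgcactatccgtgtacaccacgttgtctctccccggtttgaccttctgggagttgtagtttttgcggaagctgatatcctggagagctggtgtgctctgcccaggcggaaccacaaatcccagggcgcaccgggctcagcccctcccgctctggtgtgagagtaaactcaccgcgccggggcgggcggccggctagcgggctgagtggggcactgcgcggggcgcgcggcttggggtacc
Mitf-203 promoter, chr6:97929567-97929866, plus strand: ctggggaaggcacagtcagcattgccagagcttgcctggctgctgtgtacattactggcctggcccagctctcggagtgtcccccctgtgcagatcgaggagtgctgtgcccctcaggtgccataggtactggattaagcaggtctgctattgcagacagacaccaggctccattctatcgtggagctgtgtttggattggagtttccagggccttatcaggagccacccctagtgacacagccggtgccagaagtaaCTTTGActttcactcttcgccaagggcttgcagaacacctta
M promoter, chr6:97991533-97991832, plus strand: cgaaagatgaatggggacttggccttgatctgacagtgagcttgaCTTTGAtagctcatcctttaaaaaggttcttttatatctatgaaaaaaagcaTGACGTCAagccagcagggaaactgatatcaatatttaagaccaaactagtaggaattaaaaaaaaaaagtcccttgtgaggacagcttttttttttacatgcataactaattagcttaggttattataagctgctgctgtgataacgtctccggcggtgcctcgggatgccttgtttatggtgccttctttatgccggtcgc
The motifs searched were TGACGTC (the cyclic AMP response element), CTTTGA (TCF/LEF), AACAAT and ACAAAG (SOX), CATGTG and CACGTG (E-box), TGANTCA (AP-1) and GGAATG (TEAD). The M promoter held CTTTGA 205 bases before the RefSeq start. It also held TGACGTC 153 bases before it, where the palindromic core reads on both strands in overlapping matches. Of all 32851 promoters of this length, 3.21% held TGACGTC and 16.0% held CTTTGA. The Mitf-203 promoter held CTTTGA 8 bases after its start, and the A promoter held none of the searched letters. The A promoter was 62.7% G or C and the M promoter 40%.

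The following 201-base windows are centred on the median summit of 4 regions away from the starts. They are shown because their width, or the lines in which they were called, differed between groups by an unadjusted exact test. Such differences were common: for female ΔEcad against the other lines, 30.2% of 8187 regions called in every list passed in width. In calls, 5.17% of 51481 regions called in 1 to 8 lists passed. A region 15.5 kb after the M start also differed in its calls and is not shown. Each is named by the distance of its summit from the M start, minus being upstream.
−162.3 kb element, chr6:97829359-97829559, plus strand: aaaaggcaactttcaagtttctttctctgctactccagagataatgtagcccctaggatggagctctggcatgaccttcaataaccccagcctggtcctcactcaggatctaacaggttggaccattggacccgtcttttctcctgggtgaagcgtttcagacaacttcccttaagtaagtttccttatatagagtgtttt
−93.3 kb element, chr6:97898383-97898583, plus strand: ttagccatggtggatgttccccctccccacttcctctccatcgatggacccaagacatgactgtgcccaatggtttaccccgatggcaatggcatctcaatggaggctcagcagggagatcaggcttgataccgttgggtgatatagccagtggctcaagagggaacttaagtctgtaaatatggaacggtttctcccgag
−10.6 kb element, chr6:97981096-97981296, plus strand: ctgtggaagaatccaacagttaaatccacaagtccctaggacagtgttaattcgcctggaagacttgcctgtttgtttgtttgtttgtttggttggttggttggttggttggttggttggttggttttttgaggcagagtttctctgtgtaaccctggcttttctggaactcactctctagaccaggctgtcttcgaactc
+54.6 kb element, chr6:98046333-98046533, plus strand: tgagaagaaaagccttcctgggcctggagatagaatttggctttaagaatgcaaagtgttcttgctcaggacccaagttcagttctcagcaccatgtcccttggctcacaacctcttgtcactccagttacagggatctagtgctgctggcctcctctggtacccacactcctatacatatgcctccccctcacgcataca
None of these windows held a searched motif. Among windows of this length at 8183 regions called in every list, the share with a match to a single motif ran from 0.623% for TGACGTC to 15.5% for ACAAAG. The share of windows that hold none of the searched motifs was not computed, so the joint lack of matches has no background here. The summits of 8 of the 9 lines fell in the +54.6 kb window, 5 of 9 in the −93.3 kb and the −10.6 kb windows, and 3 of the 4 lines with a peak in the −162.3 kb window.

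Across the locus, H3K27ac was dense in every line. Of the 38 regions, 7 were called in all 9 lists (18.4%, against 13.7% of regions genome-wide), 10 in 1 list (26.3%, against 34.0%) and 21 in 2 to 8 lists. The 7 became 3 when the peaks of a line had to cover 50% of the region, and 11 without Ma_1069. By place, 6 lay upstream of the gene, 5 downstream, 21 in introns and 6 over an exon. Among Ecad lines, the peaks covered 63.4 kb (Ma_1007) and 72.6 kb (Ma_1181) of the window in males, and 61.8 kb (Ma_1014) and 51.5 kb (Ma_1039) in females. Among ΔEcad lines they covered 48.6 kb (Ma_1062) and 66.2 kb (Ma_1456) in males, and 47.5 kb (Ma_1057), 57.2 kb (Ma_1064) and 34.3 kb (Ma_1069) in females. Ma_1069, whose list was the shortest (20741 peaks), was lowest, and the groups overlapped. Among the windows of 19456 genes, the covered share of the Mitf window stood at percentiles 96.3 to 99.4 in the 9 lines.

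**Figure D1:**
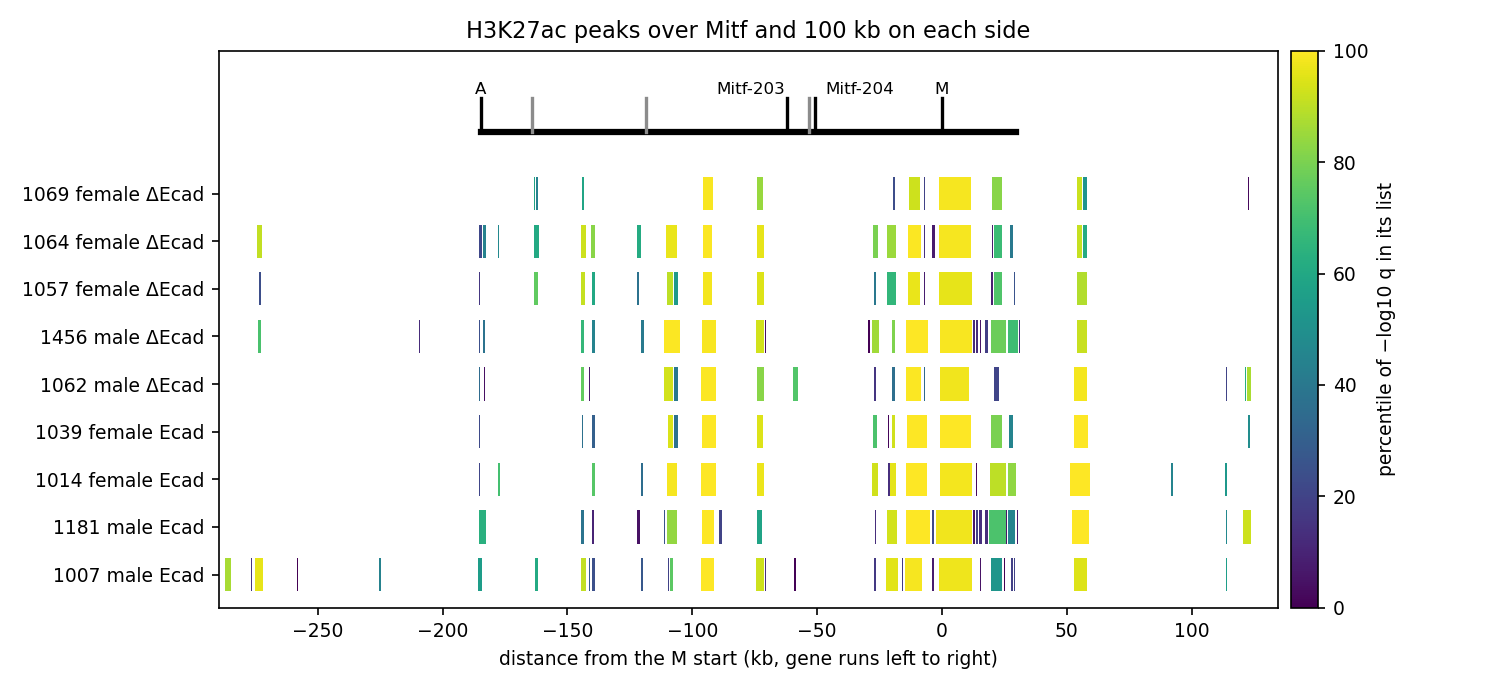
H3K27ac peaks of each line (rows) by distance from the M start in kb, with the gene body as a black bar, GENCODE starts as black ticks and RefSeq predicted starts as grey ticks. Colour gives the percentile of −log10 q of a peak within its own list. The wide peak from the M start rightwards and the −93.3 kb and −10.6 kb elements are present in all 9 lines, and little lies at the Mitf-203 and Mitf-204 starts.

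Of the alternative starts, the M start alone carried a peak in all 9 lists, always 1 broad peak over the start. It was 13031 and 14588 bp wide in the male Ecad lines, 13019 and 12447 bp in the female Ecad lines, 11651 and 12884 bp in the male ΔEcad lines, and 13147, 12814 and 12469 bp in the female ΔEcad lines. These widths stood at percentiles 98.6 to 99.4 among the promoter peaks of each list, and the −log10 q of the peak at percentiles 96.5 to 99.7 of its whole list. The −log10 q is the peak caller's measure of significance, and a percentile within the list is given because the depth of the lists is unknown. The fold enrichment, the signal at the summit over background, ran from 17.7 in Ma_1014 to 41.0 in Ma_1181. In all lines the peak reached over the exon at chr6:97994381-97994464, which all 6 coding transcripts share. The summit was never at the start. It lay 1.69 to 1.79 kb downstream in 6 lines, 4.29 kb downstream in Ma_1014, and 9.35 and 9.38 kb downstream in Ma_1039 and Ma_1069.

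The A start was marked more weakly, by a peak within 1 kb in 8 lists. The peak there was 1373 and 2606 bp wide in the male Ecad lines, 507 and 403 bp in the female Ecad lines, 580 and 594 bp in the male ΔEcad lines, and 389 and 956 bp in Ma_1057 and Ma_1064. It was not called in Ma_1069. The peak reached the start itself in Ma_1007, Ma_1181 and Ma_1064, and in the other 5 lines it ended 190 to 263 bp short of it. Its percentile of −log10 q was 55.1 and 63.3 in the male Ecad lines and 16.0 to 34.7 in the other 6 lines with a call. The count rested on weak peaks. Among peaks at or above the median −log10 q of each list, the A start was called in 2 lists, Ma_1007 and Ma_1181. That is 2 of 4 male and 0 of 5 female lines (Fisher's exact test, p = 0.167). With every list cut to its 20741 highest-ranked peaks it was called in 3 of 4 male lines (Ma_1007, Ma_1181 and Ma_1062) and 0 of 5 female lines (Fisher's exact test, p = 0.0476), against 4 of 4 and 4 of 5 in the full lists. This p is not adjusted, the cut was looked at after seeing the data, and the share of all promoters passing in lists so cut was not computed.

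No list had a peak within 1 kb of the Mitf-203 start, the Mitf-204 start or the third RefSeq predicted start. The second predicted start had one in Ma_1007 and Ma_1456, 965 and 771 bp away. The first predicted start had one 674, 739 and 819 bp away in Ma_1057, Ma_1064 and Ma_1069, the 3 female ΔEcad lines, and in none of the other 6.

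This last peak belongs to the −162.3 kb element, an intronic region at chr6:97828219-97830216. It was 1914, 1933 and 1260 bp wide in Ma_1057, Ma_1064 and Ma_1069 and 1395 bp in the male Ecad line Ma_1007, where it began more than 1 kb from the predicted start. The region as a whole was called in 3 of 3 female ΔEcad lines and 1 of 6 others (two-sided Fisher's exact test, p = 0.0476). It was at percentiles 75.5, 60.2 and 58.1 in the female ΔEcad lines and 60.6 in Ma_1007, and the calls were the same among the peaks at or above the median −log10 q of each list and in lists all cut to their 20741 highest-ranked peaks. Among the 31 Mitf regions called in 1 to 8 lists it was the 1 region past p = 0.05 by the exact test in this comparison, against 5.17% of 51481 such regions genome-wide. Leaving out any line but Ma_1007 raised the exact p to between 0.107 and 0.143.

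Between males and females, 1 of the 31 regions passed, against 1.86% genome-wide. It lies in an intron 15.5 kb after the M start and was called in 3 of 4 male lines and 0 of 5 female lines (Fisher's exact test, p = 0.0476). Its peaks were at percentiles 4.83, 13.6 and 5.55 in Ma_1007, Ma_1181 and Ma_1456, and among the peaks at or above the median −log10 q of each list it was called in no line. Without any 1 line other than Ma_1062 the exact p was 0.107 to 0.143. Between ΔEcad and Ecad lines 0 of the 31 regions passed, against 4.24% genome-wide.

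**Figure D2:**
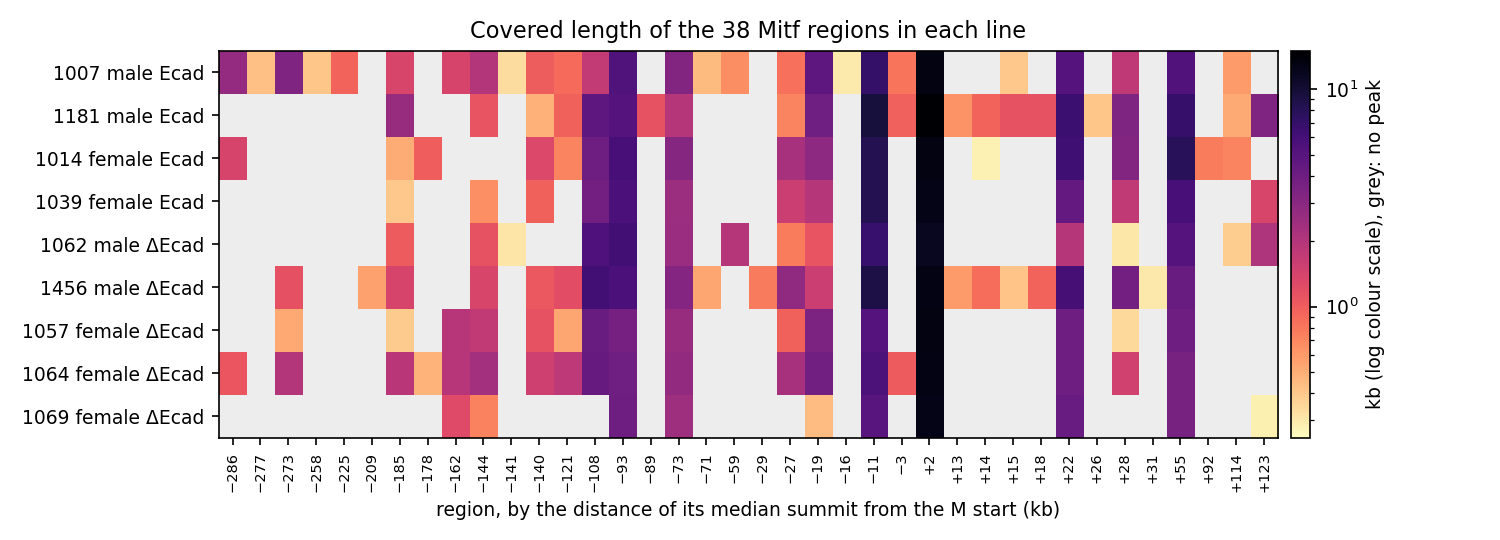
Covered length in kb, on a log colour scale, of the 38 Mitf regions (columns, by distance of the median summit from the M start) in the 9 lines (rows), with grey for no peak. The 7 columns filled in every row include the M start, and the column at −162 kb is filled in the 3 female ΔEcad lines and Ma_1007. The leftmost region crosses the window's edge, and its peaks in Ma_1014 and Ma_1064 lie outside the window.

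In width in bp and in percentile of −log10 q, the M peak did not pass the test in any comparison. Its width was 12593 ± 579 bp (SD, n = 5) in ΔEcad and 13271 ± 919 bp (n = 4) in Ecad lines (exact permutation test over lines, two-sided, p = 0.262). It was 12779 ± 316 bp in females (n = 5) and 13039 ± 1204 bp in males (n = 4, exact p = 0.667). The female ΔEcad lines had 12810 ± 339 bp (n = 3) and the other 6 lines 12937 ± 963 bp (exact p = 0.821). For promoter peaks called in every list, 17.5%, 22.7% and 38.9% of 4622 genes had p under 0.05 in these comparisons. The percentile of the M peak also did not separate the groups, with exact p of 0.897, 0.675 and 0.548, where 18.3%, 12.6% and 30.6% of the 4622 genes passed. Divided by the median peak width of its list, the M peak was wider by 1.65 median widths in the female ΔEcad lines than in the others (exact p = 0.0238). In bp it was not wider there, and the divisor itself differed. List medians were 943, 1019 and 1014 bp in the female ΔEcad lines and 1059 to 1195 bp in the others. Ranked by fold enrichment in place of −log10 q, the M peak was higher by 6.51 percentile points in ΔEcad than in Ecad lines (exact p = 0.0238). It was at percentiles 91.9, 92.8, 80.0 and 96.8 in Ma_1007, Ma_1181, Ma_1014 and Ma_1039. In the ΔEcad lines it was at 95.5 to 99.1. For these last 2 measures the share of all promoters that pass was not computed.

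**Figure D3:**
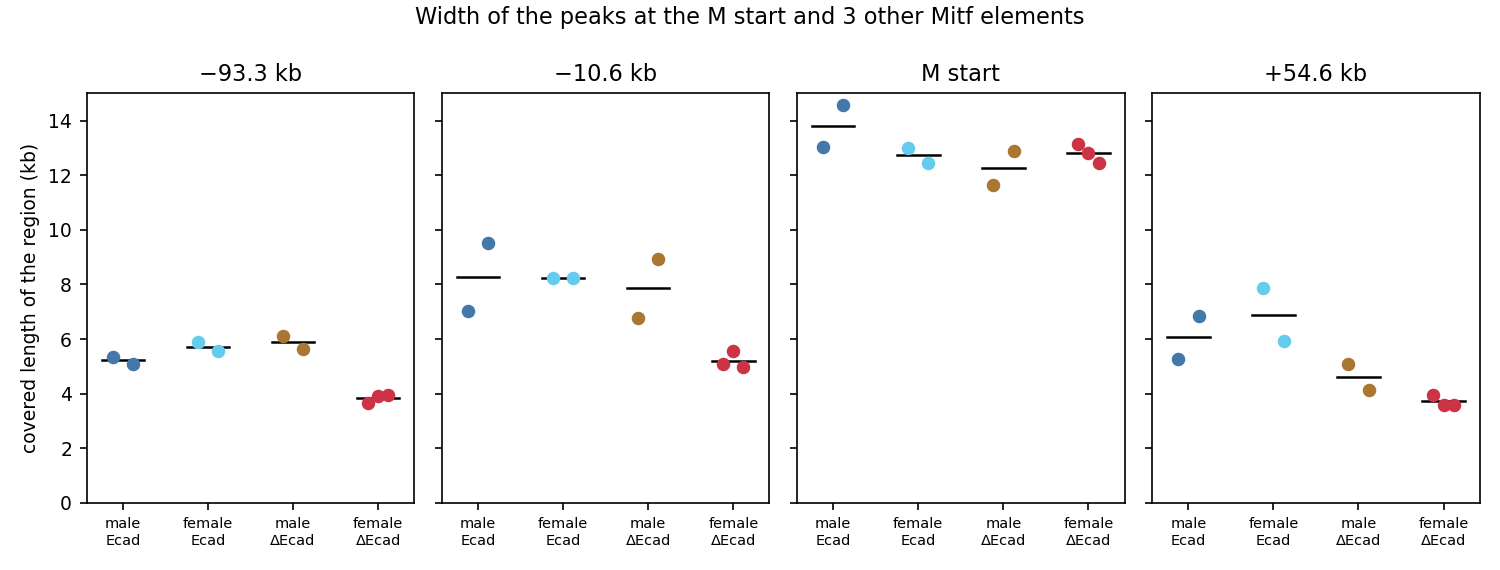
Covered length in kb of the M peak and of 3 elements away from it, 1 point a line, with a bar at the mean of each group. The M peak lies between 11.7 and 14.6 kb in all groups, and the female ΔEcad points are the lowest at the other 3 elements.

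Away from the M start, 3 elements were narrower in the female ΔEcad lines by the unadjusted exact test. The −93.3 kb element, in an intron, held the peak with the highest −log10 q of the window in 8 lines, and the −10.6 kb element did so in Ma_1456. By fold enrichment the −93.3 kb element led in 4 lines, the −10.6 kb element in 3 and the +54.6 kb element in 2. The −93.3 kb element was 5360 and 5076 bp wide in the male Ecad lines, 5881 and 5570 bp in the female Ecad lines, 6126 and 5639 bp in the male ΔEcad lines, and 3639, 3912 and 3947 bp in the female ΔEcad lines. All 3 female ΔEcad widths lay below all others, at 3833 ± 169 bp (n = 3) against 5609 ± 371 bp (n = 6; exact permutation p = 0.0119, the smallest that 84 splits allow; Benjamini-Hochberg adjusted over 8187 regions, 0.0821).

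The −10.6 kb element lies in the intron just upstream of the M start. It was 7042 and 9522 bp wide in the male Ecad lines, 8250 and 8229 bp in the female Ecad lines, 6779 and 8949 bp in the male ΔEcad lines, and 5078, 5563 and 4958 bp in the female ΔEcad lines. The groups did not overlap, with 5200 ± 320 bp (n = 3) against 8129 ± 1062 bp (n = 6, exact permutation p = 0.0119, adjusted 0.0821).

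The +54.6 kb element lies 21828 bp beyond the end of the gene. It was 5285 and 6851 bp wide in the male Ecad lines, 7856 and 5926 bp in the female Ecad lines, 5068 and 4118 bp in the male ΔEcad lines, and 3954, 3600 and 3587 bp in the female ΔEcad lines. Every ΔEcad line lay below every Ecad line, at 4065 ± 605 bp (n = 5) against 6480 ± 1120 bp (n = 4, exact permutation p = 0.00794, the smallest that 126 splits allow, adjusted 0.243). The female ΔEcad lines against the other 6 gave 3714 ± 208 bp against 5851 ± 1339 bp (exact permutation p = 0.0476, adjusted 0.158).

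These 3 of the 7 regions called in every list are to be read against the genome, where 30.2% of 8187 such regions passed an exact p of 0.05 in width for female ΔEcad against the other lines. The median difference over all of them was −514 bp, and 82.3% were narrower in the female ΔEcad lines. For ΔEcad against Ecad, 1 of the 7 passed in width against 16% of all, and for females against males 0 of 7 against 13.8%. No region of the 8187 passed after adjustment in any of the 3 comparisons. How many of the 8187 separate the groups without overlap, in width or in percentile, was not counted. The lack of overlap at these elements can therefore not be read as particular to Mitf. The −93.3 kb and −10.6 kb elements kept p under 0.05 in width without any 1 line, and the +54.6 kb element did so for ΔEcad against Ecad. For female ΔEcad against the others, the +54.6 kb element lost it in 8 of 9 such repeats, and after division by the median width of the list (exact p = 0.0952).

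The ranks moved in part with the widths. For ΔEcad against Ecad, 3 of the 7 regions had a lower percentile of −log10 q with exact p under 0.05, against 13.3% of the 8187. The largest difference was at an intronic element 19.2 kb before the M start, at percentiles 95.3 and 93.2 in the male Ecad lines, 96.0 and 92.7 in the female Ecad lines, 36.2 and 80.5 in the male ΔEcad lines, and 65.9, 85.1 and 23.4 in the female ΔEcad lines. No ΔEcad line reached the Ecad lines there (58.2 ± 27.3, n = 5, against 94.3 ± 1.62, n = 4, exact permutation p = 0.0238, adjusted 0.327). The −93.3 kb element was at 99.1 ± 0.517 against 99.9 ± 0.0862 (exact p = 0.0238) and the +54.6 kb element at 92.3 ± 3.55 against 98.5 ± 2.59 (exact p = 0.0397). For female ΔEcad against the others, the −93.3, −10.6 and +54.6 kb elements were lower (exact p = 0.0238, 0.0238 and 0.0357), against 21.9% of all. For females against males 0 of 7 passed, against 8.73%. Most of these rank calls were lost on leaving out 1 line or another: for ΔEcad against Ecad in 4 of 9 repeats at the −19.2 kb element and 7 at the +54.6 kb element, and for female ΔEcad against the others in 6 at the −93.3 kb, 2 at the −10.6 kb and 7 at the +54.6 kb element. The −93.3 kb element kept p under 0.05 for ΔEcad against Ecad in all 9 repeats of the exact test.

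**Figure D4:**
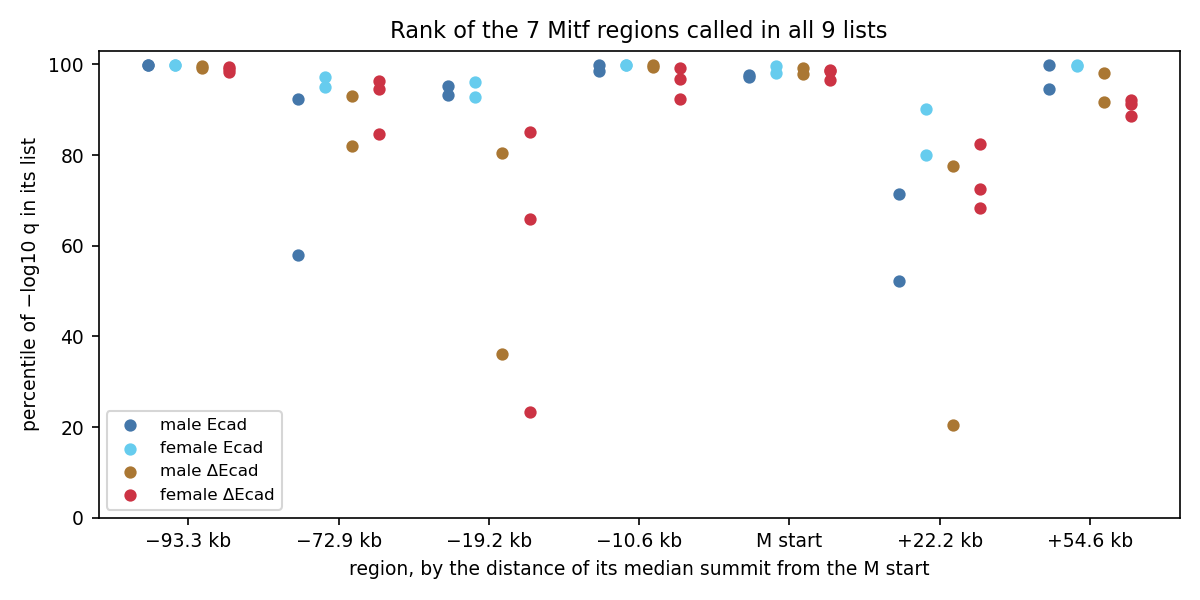
Percentile of −log10 q within its list (0 to 100) for the 7 regions called in all lists, 1 point a line, coloured by group. The M peak stays above 96 in all lines, while the element at −19.2 kb spreads from 23.4 to 96.0 with the Ecad lines at the top.

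Summed over the window, the covered length was 50.8 ± 11.9 kb in ΔEcad and 62.3 ± 8.64 kb in Ecad lines (exact permutation p = 0.159, n = 5 and 4). It was 50.5 ± 10.6 kb in females and 62.7 ± 10.1 kb in males (exact p = 0.119). The female ΔEcad lines had 46.3 ± 11.5 kb and the other 6 lines 60.7 ± 9.07 kb (exact p = 0.0833). None passed, where 18.6%, 8.94% and 30.6% of the windows of 19456 genes did. As a share of the covered length of each list, the Mitf window took 0.133 ± 0.0150% in the female ΔEcad lines and 0.131 ± 0.0282% in the others (exact p = 0.952), and the shortfall in kb was not seen on that scale.

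**Figure D5:**
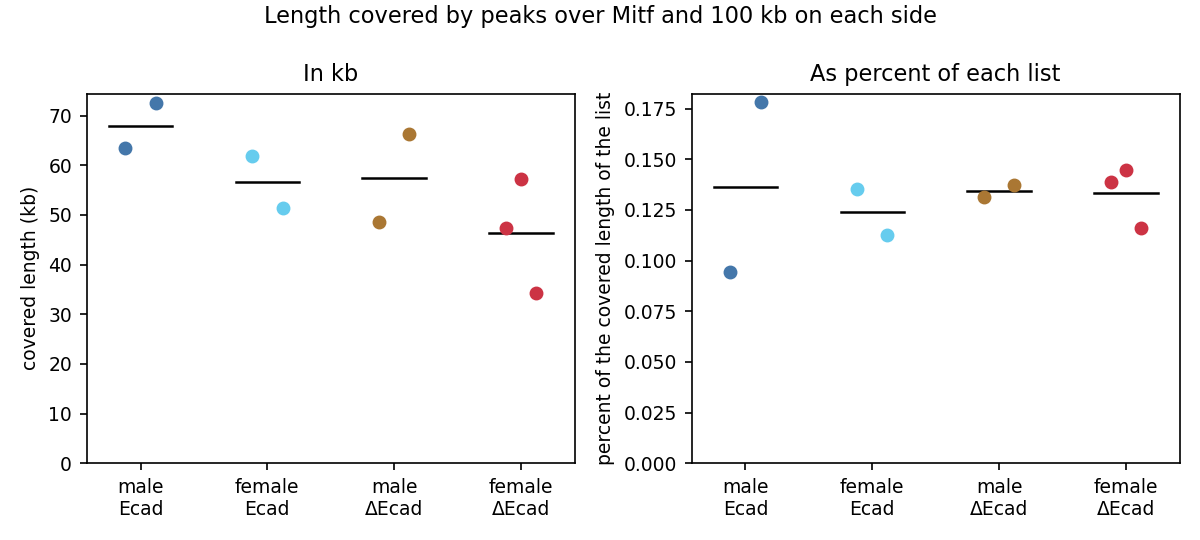
Length covered by peaks in the Mitf window, in kb (left) and as percent of the covered length of the list (right), 1 point a line with a bar at the group mean. In kb the lowest line is the female ΔEcad line Ma_1069 at 34.3, and as percent of the list the groups overlap.

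Mitf stood apart from its family in extent. Over the same kind of window, peaks covered 34.3 to 72.6 kb at Mitf, 3.98 to 16.2 kb at Tfeb, 1.15 to 10.5 kb at Tfe3 and 1.36 to 7.81 kb at Tfec, with no test, since windows differ in length. As a share of each window the contrast was smaller. It was 8.28 to 17.5% at Mitf, 1.56 to 6.36% at Tfeb, 0.541 to 4.93% at Tfe3 and 0.511 to 2.95% at Tfec. These genes encode the related factors that bind the same kind of E-box, of which TFEB and TFE3 drive lysosome genes. The Tfeb promoter was called in 9 lists and that of Tfec in 0. The Tfe3 promoter, on the X chromosome, was called in 6 of 6 other lines and 0 of 3 female ΔEcad lines (Fisher's exact test, p = 0.0119, adjusted over 6985 genes 0.155), against 14% of genes at p under 0.05 in this comparison. Some of the 6 calls were weak. Their highest −log10 q ran from percentile 12.6 to 77.2 of its list, and their summed width from 491 to 3585 bp. Without any 1 line the exact p was 0.0179 to 0.0357. The 3 female ΔEcad lists also had the fewest genes with a promoter peak: 6615 in Ma_1057, 7318 in Ma_1064 and 5556 in Ma_1069. The other lists had 8424 to 10668, and whether this accounts for the Tfe3 calls was not tested.

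Of 12 genes known to act upstream of Mitf, 7 had a promoter peak in all 9 lists: Sox10, Pax3, Tcf7l2, Creb1, Zeb2, Bhlhe40 and Mc1r, which encode transcription factors and, last, the receptor for melanocyte-stimulating hormone. Lef1 was called in 6 lists, Kit in 5, Ednrb in 3 and Onecut2 in 0. Pou3f2, which encodes the factor BRN2, was called in Ma_1007, Ma_1181 and Ma_1456 and in 0 of 5 female lines (Fisher's exact test, p = 0.0476, adjusted 0.792), against 5.11% of genes. Its highest −log10 q was at percentiles 35.8 to 49.5 in those 3 lists, below the median of each list. Without any 1 line other than Ma_1062 the exact p rose to between 0.107 and 0.143. Of 18 genes known as MITF targets, 11 were called in all 9 lists, among them the pigment enzyme genes Tyr and Dct. A further 6 were called in some lists only, and Birc7 in none. Pmel and Cdk2 share 1 promoter peak and count as 2 of the 11. For ΔEcad against Ecad, 0 genes of the 3 lists passed, against 9.46% of genes. Genome-wide 21.1% of 21951 promoters were called in every list and 47.1% in none.

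The melanoma label was checked at marker genes. Of 7 melanocyte genes, Mitf among them, 6 had a promoter peak in all lists, and Tyrp1 lacked one in Ma_1181, Ma_1062 and Ma_1069. Of the markers of other cell types reported here, those of keratinocytes, endothelium and leukocytes had none in any list and the fibroblast gene Pdgfra had one in Ma_1007. Not every marker is reported, so these values do not show that marks of all other cell types were absent.

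Among the genes whose peak coverage followed that of Mitf most closely over the 9 lines were Retreg3, Vps52, Tubg1 and Arl6, with Pearson's r of 0.928, 0.928, 0.926 and 0.922. The measure was the share of a list's covered length that fell in the gene and 10 kb on each side, over 7526 genes more than 1 Mb from Mitf with a peak in every list, whose median r was 0.154. The points share the 9 lists, and these genes were taken from the top of all genes, so r is a description. Retreg3 and Tubg1 both lie on chromosome 11. Whether they share peaks was not checked, so they may not be separate likenesses.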

How the data were processed

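H3K27ac ChIP-seq peak lists of 9 lines were analysed, and the 4 input libraries were not used here. Per the submitters' processing notes, the builds were GRCm38 (mm10) and the tools Bowtie2 2.4.5, MACS2 2.2.7.1 and deepTools 3.5.1.0.0. Peak calling settings, and the input used for each list, are not given in the sources used here. Each deposited peak has a score, a fold enrichment (a linear ratio), −log10 p and −log10 q values from the authors, and a summit offset. The lowest deposited −log10 q was 5.00. Lists held 20741 to 41663 peaks. Lists give no read counts, so the depth is unknown, and a missing peak is one below the caller's threshold.

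A peak was at a start when within 1 kb, and starts within 1 kb of each other were joined. Regions are peaks of all lists joined at 1 bp of overlap. A region's width is the summed length of its peaks in a line, and its percentile that of its highest −log10 q within the list. Means were compared by exact permutation over lines, p being the share of all splits with an absolute difference at least as large, and calls by Fisher's exact test. The smallest p was 0.00794 for 5 against 4 lines and 0.0119 for 3 against 6. Within a sex it was 0.1 or higher, so no test was run there. Adjustment (Benjamini-Hochberg) ran over all genes or regions. The statistics were tested on simulated data. Python 3.11.15, NumPy 2.4.6, pandas 2.3.3, SciPy 1.17.1 and pysam 0.24.0 were used. The alternatives were shorter lists, list scaling, other distances and flanks, RefSeq starts and leaving out lines. Those on single regions, single promoters, the A start and RefSeq starts were chosen after seeing the data. The locus, the gene lists and the motifs were chosen with earlier results of these data known. Named genes were the MITF family, 12 upstream genes, 18 targets, markers and the 5 genes most like Mitf. Some genes that this rule names are not reported here.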

Additional observations from a re-analysis of the deposited data

Results flagged for a closer look

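The width of the −93.3 kb element moved in opposite directions in the 2 sexes between ΔEcad and Ecad lines. In females the ΔEcad mean was lower than the Ecad mean (difference −1893 bp), and in males it was higher (difference 664.5 bp). The difference between the sexes was not tested.

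Among 80 groups of values checked, 1 line lay far from the rest of its group in 10. The threshold is set so that chance flags about 1 in 20 independent groups, but these groups share the same 9 lines. Ma_1069 had 1 start group called where the other ΔEcad and the other female lines had 2. The percentile of the element 72.9 kb before the M start was 57.9 in Ma_1181 against 92.4 in the nearest Ecad line, and 84.7 in Ma_1069 against 94.6 in the nearest female line. At the −19.2 kb element, Ma_1062 was at 36.2 against 80.5 in the nearest of the lines other than female ΔEcad. At the −10.6 kb element, Ma_1007 was at percentile 98.5, below the other Ecad lines and the other lines outside the female ΔEcad group. At the +54.6 kb element, Ma_1007 was at 94.6 against 99.7 in the nearest Ecad line. The element 22.2 kb after the M start was 6232 bp wide in Ma_1014 against 4426 bp in the nearest female line, and in Ma_1062 it was at percentile 20.4 against 68.3 in the nearest ΔEcad line.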

How the results depend on the processing

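No paired analysis was possible because the replicate numbers follow accession order and pair no lines. Differences below are ΔEcad minus Ecad, female minus male and female ΔEcad minus the other 6 lines, in that order where 3 are given. As percent of the list, covered length differed by 0.00353 (ΔEcad minus Ecad) and 0.00186 (female ΔEcad), a reversed direction. Leaving out 1 line gave −15.4 to −7.43, −16.9 to −8.21 and −19.8 to −8.34 kb, with exact p = 0.0357 for the sexes without Ma_1062 and for the last without Ma_1064. The M peak's width divided by the list's median width differed by 0.631, 0.867 and 1.65, all reversed, and without 1 line by −953 to −239, −722 to 257 and −384 to 203.6 bp. The percentile of its fold enrichment differed by 6.51, −0.598 and 4.93, and its percentile among promoter peaks by 0.275 (ΔEcad minus Ecad), all reversed. Without 1 line its percentile differed by −0.398 to 0.401, −0.0494 to 0.757 and −0.818 to 0.275. The number of start groups called differed by −0.75 between the sexes in lists of equal length (exact p = 0.0476), where the A start was called in 0 of 5 female lines, by 0.35 (ΔEcad minus Ecad) and 0.333 (female ΔEcad) with RefSeq starts added, and without 1 line by −0.25 to 0, −0.25 to 0 and −0.5 to 0. Regions called in every list numbered 3 where peaks had to cover 50% of the region, and 7 to 11 without 1 line, 11 without Ma_1069. Of the 7 regions, those past an exact p of 0.05 without 1 line numbered 1 to 3, 0 to 0 and 2 to 3 in width (3 for ΔEcad minus Ecad without Ma_1456) and 1 to 3, 0 to 2 and 0 to 3 in percentile (0 in the last without Ma_1057). The causes were not tested. Depth is unknown, so a peak missing from a short list such as that of Ma_1069 does not show that the mark is absent there.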
